A study of Arabidopsis thaliana with 48 samples.

Results

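A set of 50 genes nearly silent in wild-type Arabidopsis thaliana seedlings, which carry transcripts in mutants of the INO80 chromatin remodeler and its partners were examined across all 48 RNA-seq libraries. They were chosen from 32548 loci by their own values. A locus had to average under 5 normalized reads in each of the 3 groups of wild-type libraries (Col-0), which left 11159 loci. These were ranked by their mean over the 18 libraries of the mutants ino80, nfrkb1/2/3 and uch1/2, and the first 50 were kept after 12 loci had been dropped by name (AGO9, SYN1, CRA1, CRU2, CRU3, SESA1 to SESA4, OLEO1, OLEO2 and AT5G15420). Of these 12, 10 were under the Col-0 limit and 4 (AGO9, CRU3, OLEO1 and OLEO2) would have ranked among the first 50. Values of ino80, nfrkb1/2/3, uch1/2 and Col-0 therefore chose the members and are given as a description without a test.

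The labels name 9 genotypes. They are homozygous ino80, nfrkb1/2/3 (a triple mutant), uch1/2 (a double mutant), arp5 and atx4/5;jmj24 (a triple mutant), 3 transgenic lines, and wild type. The transgenic lines all carry the ino80 mutation and express INO80 residues 1 to 550 (INO80-(1-550), written INO80N here), residues 335 to 1540 (INO80-(335-1540), written INO80C) or the full-length protein (INO80-FL, written INO80FL). The promoter of the transgenes, the number of independent lines and the mutant alleles are not given in the sources used here. Whole seedlings were grown with 16 h of light a day (long days, LD) or 8 h (short days, SD). In set 1 they were 11 days old in LD and 14 days old in SD when RNA was taken, and the age of the set 2 seedlings is not given in the sources used here. Set 1 holds 2 libraries of each genotype in each day length, and set 2 holds 2 more SD libraries of ino80, nfrkb1/2/3, uch1/2, atx4/5;jmj24, INO80FL and Col-0. The sets were normalized apart, so tests stay within a set, and ranges that span both are levels only.

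INO80 is the ATPase of a conserved chromatin remodeling complex that moves and edits nucleosomes. ARP5 is an actin-related subunit of that complex, NFRKB proteins and UCH enzymes are partners of it in other eukaryotes, ATX proteins are histone H3 lysine 4 methyltransferases, and JMJ24 is a JmjC-domain protein. In seedlings many genes of seeds, pollen, floral organs and stress responses stay silent under repressive chromatin, and a gene that is nearly off in wild type gives a clear view of any transcript that appears. Whole seedlings mix all organs, so more transcript per cell and more cells of a kind that express a gene cannot be told apart.

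Each library summed to 18867187 to 22653356 normalized reads (set 1) or 20080952 to 22921363 (set 2), so a value of 5 is a very low level and counting error is large for every member. INO80 itself still gave reads in ino80, at 941 and 783 in LD against 1580 and 1580 in Col-0. The mutated loci were lower than in Col-0 in the libraries labelled for them with 2 exceptions. ATX5 was at 390 and 339 in atx4/5;jmj24 in set 2 against 334 and 269 in Col-0. ARP5 went against its label, with 5820 and 5650 in libraries labelled arp5 in LD against 334 and 293 in Col-0, and 7940 and 6980 against 355 and 338 in SD. Directions drawn from the libraries labelled arp5 are therefore those of libraries with more ARP5 reads than Col-0. The labels do not say that the 2 libraries of a group come from separate cultures, so p-values measure the spread between libraries. All 50 members lie on the nuclear chromosomes, and none belongs to the lists of root, floral organ, meiosis and germline, anther and pollen, seed maturation or silencing genes described at the end. For the meiosis and seed maturation lists this follows in part from the loci dropped by name. AGO9 is in the first of these lists, and CRU3, OLEO1 and OLEO2 are in the second. Each would have ranked among the first 50.

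The members were weakly expressed even where they were on. Their means over the 18 mutant libraries ran from 8.67 (AT5G52740, annotated as a copper transport protein) to 42.5 (AT5G41290, a receptor-like kinase relative). All 50 had at least 1 of the 6 Col-0 libraries at a value of 1 or more, so nearly silent describes wild type better than silent. Only 12 members reached 5 in all 18 mutant libraries, and 38 reached it in at least 10. In 15 members the lowest mutant library stood above the highest Col-0 library, which was true of 0.188% of the 11159 loci under the limit (21 loci), a comparison that the choice of members itself favours. In 12 members a single library held at least 25% of the summed mutant value, and in 9 a single line held at least 60%.

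The ranking had no gap at its end. The last 3 members had means of 8.77 (AT1G57630), 8.68 (TDR1) and 8.67 (AT5G52740), and the next 3 loci had 8.5 (AT4G19430), 8.49 (AT3G05955) and 8.49 (AT5G43570). Just over the Col-0 limit lay AT4G19760, with a mutant mean of 28.8 and a highest Col-0 group mean of 5.77, CSLD1 with 17.4 and 5.27, and CYP710A4 with 16.6 and 5.25. Just under it were AT1G57630, WOX12 and NRT2.3, each with a highest Col-0 group mean of 4.95.

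**Figure D1:**
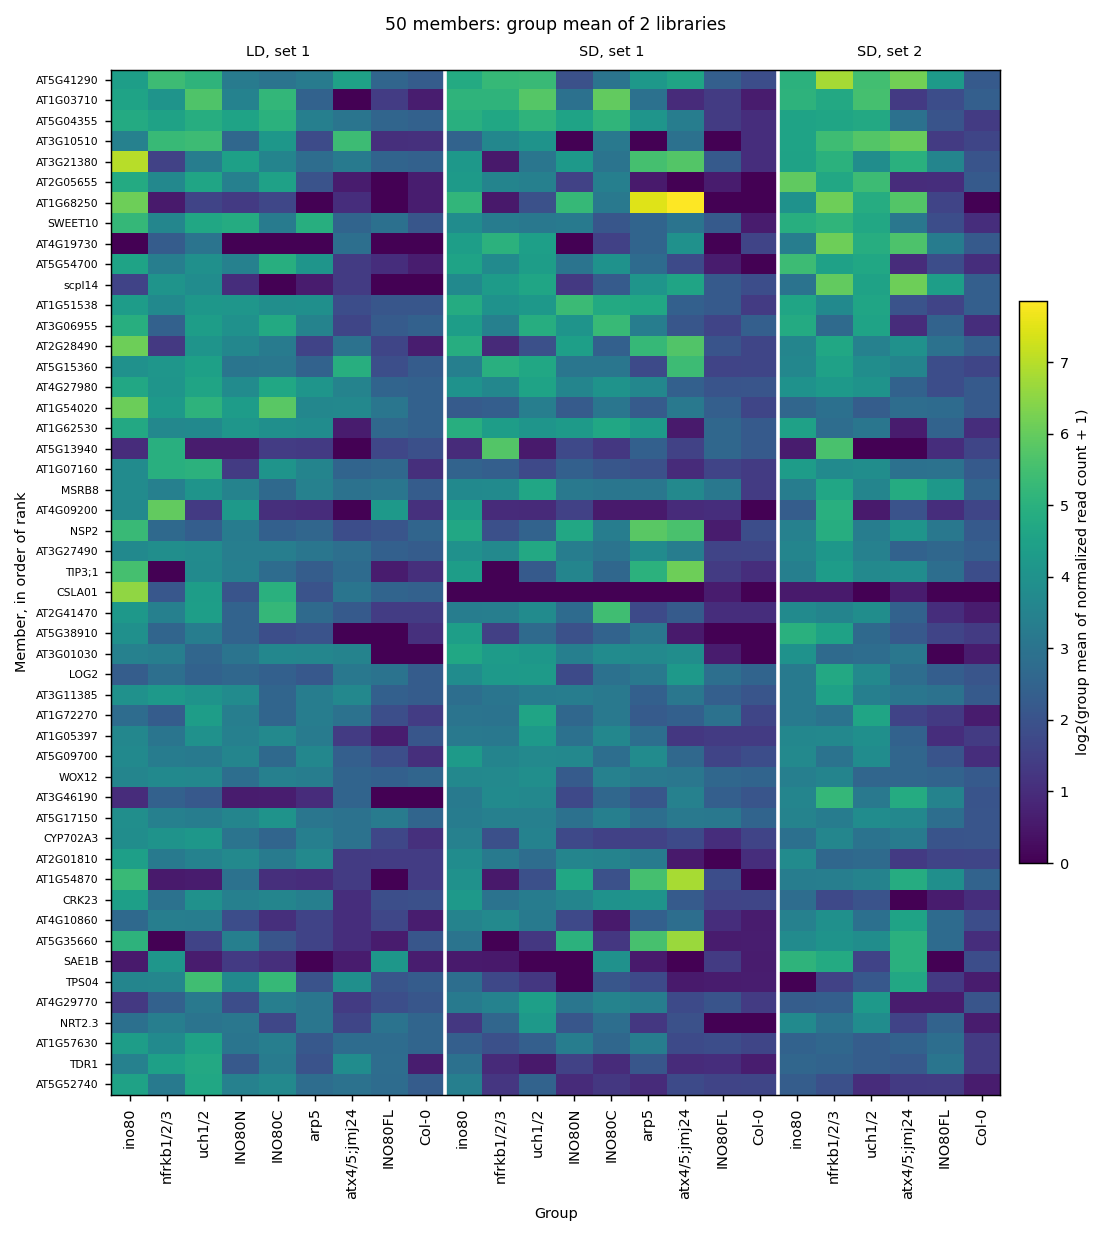
Mean of the 2 libraries of each group on the log2(value + 1) scale for the 50 members, in order of rank from top to bottom, with groups in columns by day length and set. Most members are bright in several mutant groups and dark in Col-0, where every group mean is under 5, while AT5G13940 is bright in nfrkb1/2/3 and seed-type genes such as AT1G68250 are bright in only some groups.

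A core of members was on in every mutant library. AT1G03710, annotated as a cystatin-like protein (chr1:923390-924730, plus strand, RefSeq TAIR10.1), had a lowest, median and highest value of 11.5, 32.9 and 62.8 over the 18 mutant libraries, against 0.00852 to 5.22 in the 6 Col-0 libraries. The long non-coding RNA AT5G04355 (chr5:9518347-9519363, plus strand) had 19.4, 25.6 and 34.8 in the mutants against 1.05 to 6.5 in Col-0. It overlaps AT5G27037 on the opposite strand, and the strand setting of the counting is not given in the sources used here, so the reads may belong to either gene. In both genes the lowest mutant library was above the highest Col-0 library.

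The same held for other members of high rank. AT5G41290 had 14.7, 38 and 120 in the mutants against 2.16 to 5.43 in Col-0, and its highest values were 99.8 and 120 in nfrkb1/2/3 in SD of set 2. AT2G05655, an uncharacterized protein gene on chromosome 2, had 8.96, 20.7 and 69.9 in the mutants against 0 to 4.18 in Col-0. AT5G54700, annotated as an ankyrin repeat protein, had 5.72, 18 and 50.9 in the mutants against 0 to 1.08 in Col-0. In these 3 genes too no mutant library was as low as the highest Col-0 library. AT1G51538, an aminotransferase-like plant mobile domain gene, had 10.7, 17.9 and 29 in the mutants against 0.0735 to 6.44 in Col-0, again without overlap.

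Other members of high rank were on in most but not all mutant libraries. AT3G10510, a kelch repeat gene, had 2.77, 22.4 and 65.1 in the mutants against 1.05 to 2.11 in Col-0, and its lowest mutant values were 2.77 and 6.62 in ino80 in SD of set 1, still above Col-0. SWEET10, a member of the SWEET family of sugar transporters, had 2.56, 16.9 and 46.2 in the mutants against 0.00852 to 4.35 in Col-0, so the ranges overlapped. AT4G19730, a glycosyl hydrolase gene, had 0, 17 and 80.3 in the mutants against 0 to 5.23 in Col-0. It was low in LD, with 0 and 0 in ino80, 0 and 7.78 in nfrkb1/2/3 and 12.2 and 2.02 in uch1/2, and reached 56.6 and 80.3 in nfrkb1/2/3 in SD of set 2. The serine carboxypeptidase-like gene scpl14 had 0.982 and 2.95 in ino80 and 16.7 and 14.4 in nfrkb1/2/3 in LD. In SD of set 2 it had 8.99 and 4.96 in ino80 and 58.6 and 65.1 in nfrkb1/2/3. There INO80FL had 19.6 and 20.7, and Col-0 had 0 to 5.24 over its 6 libraries of both sets. The gene scpl14 lies 36303 bp from ARP5.

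The 3 members with the largest share of their mutant signal from each line are described here. For ino80 these were CSLA01, AT1G54870 and AT3G21380. CSLA01, a cellulose synthase-like gene, took 79.8% of its summed value from ino80 and 74.4% from 1 library, with 11.6 and 174 in the 2 ino80 libraries in LD and 0 and 0 in SD. Its rank thus rests on a single library. AT1G54870, an NAD(P)-binding Rossmann-fold gene, and AT3G21380, a mannose-binding lectin gene, took 72.5% and 72.4% of their value from ino80. In LD the ino80 libraries had 12.7 and 66 of AT1G54870 and 57.1 and 200 of AT3G21380, against 0 to 8.3 and 1.05 to 7.53 over the 6 Col-0 libraries. Both belong to the seed-type group.

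For uch1/2, AT1G72270 took 62.9% of its value from that line. The gene, annotated as a nucleolar pre-ribosomal-associated protein, had 17.4 and 22.1 in uch1/2 in LD, 27.2 and 19 in SD of set 1 and 25.5 and 21.4 in set 2. Its other mutant values were 7.92 and 3.91 in ino80 and 4.92 and 2.87 in nfrkb1/2/3 in LD, and its Col-0 values were 0.00599 to 3.17. All 6 uch1/2 libraries were above every library of ino80, nfrkb1/2/3 and Col-0. AT4G29770, annotated as a target of trans-acting siRNAs, took 59% of its value from uch1/2, with 20.5 and 21 there in SD of set 1 and 18.7 and 17.3 in set 2 against 1.09 to 4.35 in Col-0. In LD it had 7.18 and 9.05 in uch1/2, beside 8.88 and 9.56 in INO80C and 4.97 and 10.1 in libraries labelled arp5. TPS04, a terpene synthase of volatile homoterpene formation, took 59.5% from uch1/2, with 45 and 40.2 there in LD and 0 and 2.8 in SD of set 1. Outside the mutants of the rule, TPS04 had 48.2 and 25.8 in INO80C in LD and 30.1 and 20.3 in atx4/5;jmj24 in set 2.

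For nfrkb1/2/3 the members were AT5G13940, AT4G09200 and AT4G19730. AT5G13940, annotated as an aminopeptidase (chr5:4490263-4495753, minus strand), took 97.5% of its mutant value from nfrkb1/2/3. It had 31.4 and 27.9 in nfrkb1/2/3 in LD, 57.2 and 47.7 in SD of set 1 and 43 and 52.8 in set 2. In Col-0 it had 1.17 and 4.32 in LD, 3.15 and 4.26 in SD of set 1 and 3.12 and 1.08 in set 2. All 6 nfrkb1/2/3 libraries stood above the other 42, whose highest value was the 6.78 of a library labelled arp5. AT5G13940 starts 90 bp downstream, on the same strand, of AT5G13950 (chr5:4495844-4500735), which RefSeq annotates as a nuclear factor kappa-B-binding protein, and is the nearest member to any mutated locus. AT5G13950 itself had 905 and 1020 in nfrkb1/2/3 in LD against 1400 and 1570 in Col-0, 1190 and 1050 against 1330 and 1410 in SD of set 1, and 1030 and 1090 against 1820 and 2080 in set 2. In SD of set 1 AT5G13950 was as low in ino80 (1190 and 1110) and uch1/2 (1140 and 988), so its fall there was not particular to nfrkb1/2/3. In LD and in set 2 both nfrkb1/2/3 libraries were below those of ino80 and uch1/2. The part of AT5G13950 in the AT5G13940 values was not tested. AT5G13940 also overlaps TT4 (AT5G13930) and AT5G02125 on the opposite strand. The 90 bases between AT5G13950 and AT5G13940 are shown because they separate the member from the mutated locus, and capitals mark the letters AATAAA, searched on the strand of both genes.
AT5G13950 to AT5G13940, chr5:4495754-4495843, minus strand: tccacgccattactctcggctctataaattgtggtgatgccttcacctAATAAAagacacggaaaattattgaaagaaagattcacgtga

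**Figure D2:**
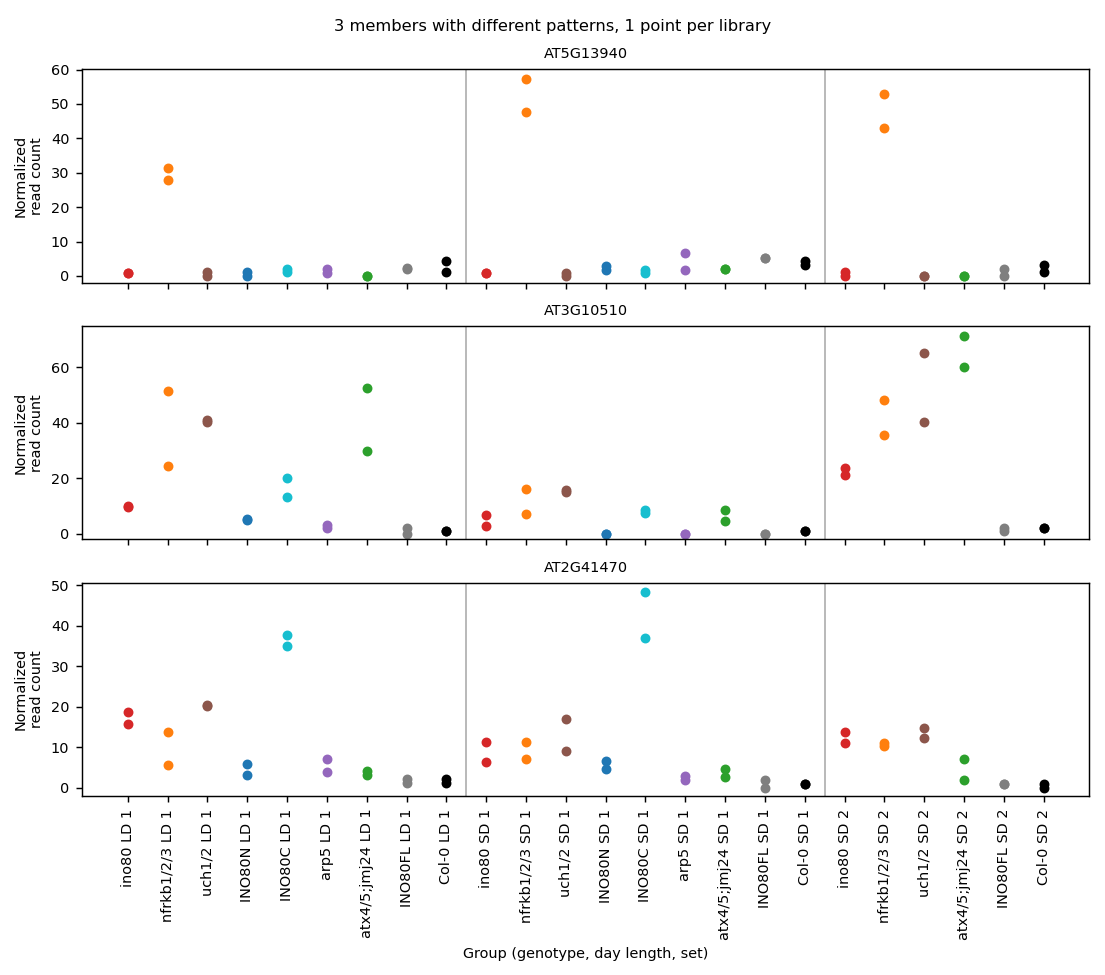
Normalized read count of AT5G13940, AT3G10510 and AT2G41470, with 1 point for each of the 48 libraries and groups along the axis by day length and set. AT5G13940 is high only in nfrkb1/2/3, AT3G10510 is also high in atx4/5;jmj24, and AT2G41470 is highest in INO80C, at 37.6 and 35.1 in LD and 48.2 and 36.9 in SD.

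The counts of 2 members are uncertain. For AT4G09200, a SPRY domain gene, and SAE1B, a subunit of the SUMO-activating enzyme, 100% of the 50-base windows of their exons occur elsewhere in the genome, so the reads of a near-identical copy may be placed on either locus. AT4G09200 had 90.6 and 32.4 in nfrkb1/2/3 in LD and 35.4 and 0.206 in INO80FL, and SAE1B had 32.6 and 0 in nfrkb1/2/3 and 1.54 and 32.2 in INO80FL. Both swung between replicates of 1 group, and the 70.9% of the AT4G09200 value that came from nfrkb1/2/3 is not read as a line effect.

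A group of 7 members varied between libraries together with seed storage genes. They were picked, after their values had been seen, by a mean of at least 30 in libraries labelled arp5 in SD, and are AT1G68250 (an uncharacterized protein), NSP2 (a nitrile specifier protein of glucosinolate breakdown), AT5G35660 (a glycine-rich protein), AT3G21380, AT1G54870, AT2G28490 (a cupin superfamily protein, as seed storage globulins are) and TIP3;1 (a tonoplast aquaporin of seeds). Their means there ran from 32 to 175, and the next member, AT1G51538, had 24.8. Over the 18 mutant libraries the lowest, median and highest values were 0, 3 and 112 for AT1G68250 and 0, 10.1 and 200 for AT3G21380. AT1G68250 had 67.8 and 1.33 in the 2 ino80 libraries in SD of set 1, and 75.1 and 0 in INO80N, so libraries of 1 group lay far apart.

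Their summed value was 284 in one ino80 library of SD in set 1 and 10.5 in the other, where the 12S seed storage genes CRA1, CRU2 and CRU3 together had 1250 and 4.36. In INO80N in SD the sum was 330 and 8.39, with 1830 and 4.95 for the storage genes. In nfrkb1/2/3 it was 4.7 and 5.4 in SD of set 1 and 283 and 110 in set 2, with storage gene sums of 3.72 and 7.3 in set 1 and 878 and 357 in set 2. In the ino80 and INO80N groups the library with the high sum was also the one with high storage gene values. The summed value of the other 43 members differed less within a group and was 537 and 584 in those ino80 libraries, 291 and 283 in INO80N in SD, and 524 and 534 in nfrkb1/2/3 in SD of set 1. The part of the seed signal seen in the storage genes in these values was not tested.

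The 250 bases upstream of the annotated starts of the 7 genes were searched on both strands for CATGCA (the RY element, bound by B3 factors of seed maturation) and ACGTG (the core of abscisic acid response elements). CATGCA was in 3 of the 7 windows (42.9%), in 3 of the other 43 members (6.98%) and in 8.77% of 32546 windows of all loci. ACGTG was in 5 of the 7 (71.4%), in 14 of the other 43 (32.6%) and in 21.8% of all windows. A match shows letters, not binding. Windows of 4 genes with matches, and that of AT1G68250, which had the highest mean of the 7 in that group and no match, are shown with the matches of either motif in capitals (5′ to 3′ on the strand of the gene, RefSeq TAIR10.1).
TIP3;1, chr1:27521694-27521943, plus strand: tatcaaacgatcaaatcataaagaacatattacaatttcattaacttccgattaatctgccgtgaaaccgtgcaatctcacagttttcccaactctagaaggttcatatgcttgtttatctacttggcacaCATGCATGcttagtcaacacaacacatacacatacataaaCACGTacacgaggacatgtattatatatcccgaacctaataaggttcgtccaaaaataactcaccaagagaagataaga
AT2G28490, chr2:12181013-12181262, minus strand: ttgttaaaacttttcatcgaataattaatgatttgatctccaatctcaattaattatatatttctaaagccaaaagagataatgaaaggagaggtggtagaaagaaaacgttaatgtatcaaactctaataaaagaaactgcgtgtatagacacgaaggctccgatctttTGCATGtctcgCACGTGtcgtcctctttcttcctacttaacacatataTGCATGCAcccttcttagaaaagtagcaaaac
AT3G21380, chr3:7527931-7528180, plus strand: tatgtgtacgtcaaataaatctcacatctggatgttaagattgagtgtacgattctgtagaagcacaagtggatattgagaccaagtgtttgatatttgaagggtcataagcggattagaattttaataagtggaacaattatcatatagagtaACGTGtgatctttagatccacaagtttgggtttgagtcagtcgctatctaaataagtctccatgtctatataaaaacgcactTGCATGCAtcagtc
AT5G35660, chr5:13853743-13853992, minus strand: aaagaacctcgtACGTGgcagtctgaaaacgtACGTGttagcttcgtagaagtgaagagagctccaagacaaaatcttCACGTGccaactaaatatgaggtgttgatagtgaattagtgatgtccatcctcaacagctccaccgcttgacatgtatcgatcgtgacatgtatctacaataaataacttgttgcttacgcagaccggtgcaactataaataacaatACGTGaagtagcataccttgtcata
AT1G68250, chr1:25580200-25580449, minus strand: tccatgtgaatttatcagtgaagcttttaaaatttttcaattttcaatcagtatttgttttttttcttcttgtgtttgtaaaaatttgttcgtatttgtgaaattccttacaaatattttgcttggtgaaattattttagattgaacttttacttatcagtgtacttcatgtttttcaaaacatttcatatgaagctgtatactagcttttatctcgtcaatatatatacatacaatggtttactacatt

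**Figure D3:**
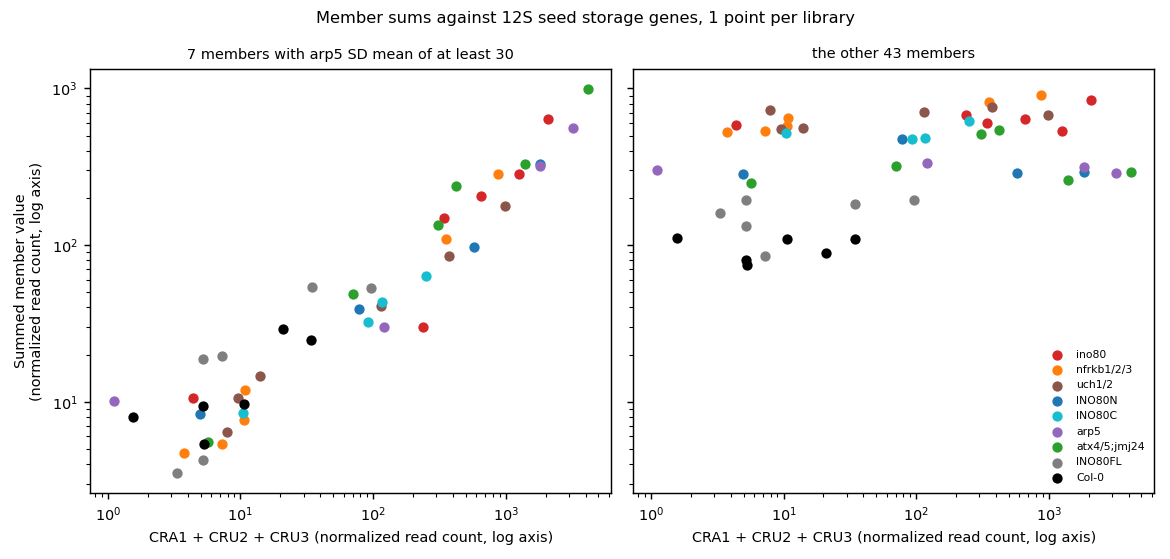
Summed value of 7 seed-type members (left) and of the other 43 members (right) against the summed value of CRA1, CRU2 and CRU3, with 1 point for each of the 48 libraries and both axes on a log scale. On the left high storage gene values go with high sums in several genotypes, and on the right the sums lie between 74.8 and 111 in Col-0 and reach 905 in an nfrkb1/2/3 library.

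A group mean of at least 5 was used to count members that were on. The median group mean of the 11159 loci under the Col-0 limit was 0 in every group, so their share is a low baseline. In the groups of the rule, given as a description, 43, 37 and 41 of 50 members passed in ino80, nfrkb1/2/3 and uch1/2 in LD, where 2.34%, 1.68% and 2.09% of the 11159 loci under the Col-0 limit passed. In SD of set 1 the counts were 42, 32 and 35 (2.14%, 1.8% and 2.01% of these loci), and in set 2 they were 41, 44 and 39 (1.61%, 1.93% and 1.6%). Libraries that the rule did not use follow. At a group mean of at least 5, 37 of 50 members passed in INO80N in LD and 29 in SD, where 2.1% and 1.99% of the 11159 loci under the Col-0 limit passed. In INO80C 33 passed in LD and 34 in SD (1.68% and 2.15% of these loci). In libraries labelled arp5 28 passed in LD and 29 in SD (1.77% and 2.02%). In atx4/5;jmj24 23 passed in LD, 25 in SD of set 1 and 28 in set 2 (1.17%, 2.08% and 1.41%). In INO80FL 13 passed in LD, 7 in SD of set 1 and 19 in set 2 (0.914%, 0.896% and 1.02%), the lowest counts of the groups outside Col-0 in each block of day length and set. Per 1000000 normalized reads, the members summed to 14.6 to 31.7 in INO80N, 23.3 to 31 in INO80C, 15.2 to 42.1 in libraries labelled arp5 and 11.9 to 64.8 in atx4/5;jmj24, against 4.85 to 10.9 in INO80FL. Without the 7 seed-type members the sums of normalized values were 283 to 475 in INO80N, 474 to 618 in INO80C and 289 to 335 in arp5-labelled libraries. They were 250 to 543 in atx4/5;jmj24 and 85.6 to 194 in INO80FL, so the INO80FL range did not overlap the others. The 7 were picked by arp5-labelled values in SD, so the arp5 range is a description only.

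**Figure D4:**
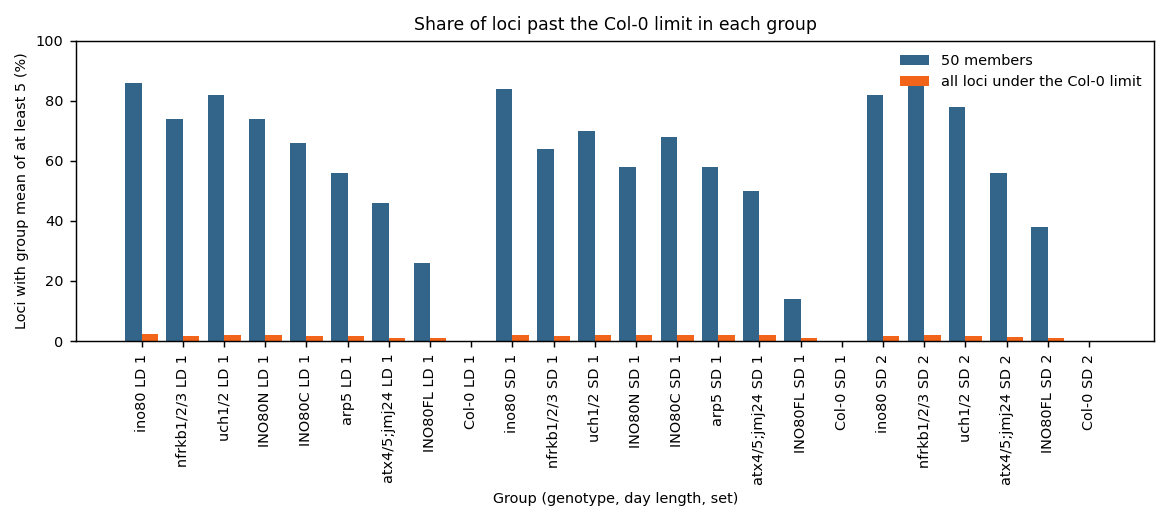
Percentage of the 50 members (blue) and of all 11159 loci under the Col-0 limit (orange) with a group mean of at least 5, for each of the 24 groups by genotype, day length and set. INO80FL has the shortest blue bars apart from Col-0, which is 0 by the rule, and the orange bars stay between 0.896% and 2.34% outside Col-0.

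Whether truncated INO80 proteins leave the members on was asked by setting them against INO80FL, which carries the same ino80 mutation. All 9 contrasts with INO80FL below share the INO80FL libraries of their day length and set, so their values stand side by side and are not independent. The test was limma on log2(value + 1), with Benjamini-Hochberg adjustment over all 25638 genes tested in set 1. Where INO80FL is at or near 0, a fitted fold change depends on the pseudocount of 1 and is no bound. The median of the members in INO80FL was 2.97 in LD, 2.08 in SD of set 1 and 3.11 in set 2. Values this low left little room for a lower call, so few lower calls and a positive median say little by themselves. The shares of all genes include genes that were not chosen to be low in Col-0. In INO80N 16 of 50 members were higher in LD and none lower, where 10.7% of all genes tested were called higher and 11.7% lower. In SD 18 members were higher and none lower (9.14% and 12.2% of all genes). In INO80C 17 were higher and none lower in LD (12.1% and 12.4%), and 20 were higher and 1, AT5G13940, lower in SD (11.9% and 15.7%). The median log2 fold change of the members was 1.34 in LD and 1.04 in SD in INO80N, and 1.04 and 1.13 in INO80C, where the median over all genes was near 0. Over the 43 members outside the seed-type group, 16 and 17 were higher in INO80N in LD and SD, and 17 and 19 in INO80C. The INO80N count of calls in LD was 10 without its second library or without the first INO80FL library. In SD it was 10 without the first INO80N library, 11 without the first and 8 without the second INO80FL library. Calls over all genes fell in these fits as well. In them the library left alone is assumed to vary like those of the other groups.

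The LD and SD contrasts of a line share no library. In INO80N 11 members were higher in both day lengths, as were 3.87% of all genes tested, and in INO80C 14 were (4.54% of all genes). The lncRNA AT5G04355 had 21.4 and 24 in INO80N and 26.8 and 36 in INO80C in LD, against 4.43 and 5.26 in INO80FL. In SD it had 20.5 and 24.8 in INO80N and 33.7 and 35.2 in INO80C, against 1.05 and 2.08 in INO80FL. Both truncated lines were above INO80FL in every library. In SD its log2 fold change was 3.23 (adjusted p = 2.2e-07, SE 0.33) in INO80N and 3.82 (adjusted p = 1.3e-08, SE 0.33) in INO80C, and in LD it was 2.02 (adjusted p = 8e-05, SE 0.33) and 2.46 (adjusted p = 7.8e-06, SE 0.33).

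The zinc finger gene AT3G01030 was at or near 0 in INO80FL, with 0 and 0 in LD and 0.00505 and 1.04 in SD, and was on in both truncated lines. It had 3.33 and 11 in INO80N and 12.1 and 10.7 in INO80C in LD, and 7.43 and 11.5 in INO80N and 15.4 and 10.1 in INO80C in SD. Its fitted log2 fold changes were 2.85 (adjusted p = 4.8e-05, SE 0.45) in INO80N and 3.63 (adjusted p = 2.5e-06, SE 0.45) in INO80C in LD, and 2.84 (adjusted p = 6.5e-05, SE 0.45) and 3.24 (adjusted p = 8.5e-06, SE 0.45) in SD. Every library of both lines was above INO80FL. Without the second INO80N library the LD value was 2.11, and without the first it was 3.59.

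The lncRNA AT3G06955, which is 203 bp long, had 18.1 and 11 in INO80N and 23.4 and 28.6 in INO80C in LD against 4.38 and 3.18 in INO80FL, and 15 and 16.2 in INO80N and 44.4 and 32.2 in INO80C against 2.08 and 2.09 in INO80FL in SD. No library of a truncated line was as low as an INO80FL library of its day length, and in SD the log2 fold changes were 2.42 (adjusted p = 2.4e-05, SE 0.35) and 3.65 (adjusted p = 5.1e-08, SE 0.35). The lncRNA AT1G05397 had 5.48 and 14 in INO80N against 1.08 and 0.00681 in INO80FL in LD, a log2 fold change of 2.77 (adjusted p = 0.00024, SE 0.50), which was 2.16 without the second INO80N library and 3.38 without the first. AT2G01810, annotated as a RING/FYVE/PHD zinc finger gene, had 10.7 and 13 in INO80N against 2.18 and 1.07 in INO80FL in LD and 11.2 and 10.5 against 0 and 0 in SD, with log2 fold changes of 2.32 (adjusted p = 0.00098, SE 0.48) and 3.57 (adjusted p = 1e-05, SE 0.48). AT1G51538 had 37.4 and 41.9 in INO80N against 1.08 and 6.21 in INO80FL in SD, a log2 fold change of 3.39 (adjusted p = 0.00059, SE 0.65). That was 2.49 without the first INO80FL library and 4.29 without the second. In these 3 genes no INO80N library was as low as an INO80FL library of its day length.

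AT2G05655 was higher in INO80N only in LD. It had 7.57 and 12 in INO80N and 21.1 and 22.3 in INO80C in LD against 0 and 0 in INO80FL, with log2 fold changes of 3.40 (adjusted p = 5.5e-05, SE 0.54) and 4.50 (adjusted p = 1.7e-06, SE 0.54). In SD it had 0 and 3.86 in INO80N and 7.67 and 11.2 in INO80C against 0.00505 and 1.04 in INO80FL, with 0.62 (adjusted p = 0.46, SE 0.54) and 2.84 (adjusted p = 0.00033, SE 0.54). The INO80N effect differed between SD and LD by -2.78 (adjusted p = 0.034, interaction contrast), in which 752 of the 25638 genes were called in this direction. Only 236 windows of 50 bases fit into its exons, and it overlaps AT2G04945 on the opposite strand, so its reads may come from either gene.

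INO80N and INO80C were also set against each other. Reads counted at INO80 itself differed between the lines, with 6550 and 6310 in INO80N against 12600 and 11500 in INO80C in LD and 6690 and 6780 against 13400 and 11800 in SD. INO80FL had 4960 and 4620 in LD and 5230 and 4840 in SD of set 1. The encoded fragments also differ in length, and the part of the INO80 reads in the contrasts of these lines was not tested. In LD 7 members were lower in INO80N and none higher (9.92% of all genes were called lower and 9.18% higher), and in SD 5 were lower and none higher (3.8% and 3.96%). The median log2 difference of the members was -0.04 in LD and -0.38 in SD. The count of lower members fell without the first INO80N library in either day length, and in LD a higher call then appeared. It also fell in LD without the second INO80C library. Calls over all genes fell in these fits too. Set beside the 9.92% of all genes, the 7 lower calls in LD are not read as a trait of the members. AT1G03710, AT3G10510 and AT2G41470 were lower in INO80N in both day lengths, as were 1.88% of all genes tested.

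AT2G41470, which RefSeq annotates as an agamous-like MADS-box protein, had 3.26 and 6.01 in INO80N against 37.6 and 35.1 in INO80C in LD, and 4.65 and 6.69 against 48.2 and 36.9 in SD. In INO80FL it had 1.13 and 2.1 in LD and 0.0101 and 2.07 in SD. Every INO80C library was above all other libraries, including the mutants of the rule. The log2 difference of INO80N from INO80C was -2.77 (adjusted p = 0.0002, SE 0.46) in LD and -2.71 (adjusted p = 0.00079, SE 0.46) in SD, and INO80C differed from INO80FL by 3.86 (adjusted p = 1.9e-06, SE 0.46) and 4.62 (adjusted p = 1.1e-07, SE 0.46). The SD value against INO80FL was 3.81 without the first and 5.42 without the second INO80FL library.

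AT1G03710 had 6.54 and 14 in INO80N against 24.8 and 46.5 in INO80C in LD, and 7.52 and 5.69 against 56.7 and 66.8 in SD, with 1.13 and 2.1 in LD and 2.07 and 1.06 in SD in INO80FL. INO80N thus lay between INO80C and INO80FL in every library. The difference from INO80C was -3.05 (adjusted p = 0.00024, SE 0.46) in SD and -1.72 (adjusted p = 0.011, SE 0.46) in LD, where the adjusted p was 0.15 without the first INO80N or the second INO80C library. INO80C differed from INO80FL by 3.77 (adjusted p = 2.6e-06, SE 0.46) in LD and 4.64 (adjusted p = 1e-07, SE 0.46) in SD.

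AT3G10510 had 0 and 0 in INO80N against 8.67 and 7.38 in INO80C in SD, a difference of -3.17 (adjusted p = 0.00012, SE 0.46), and 5.35 and 5.01 against 13.4 and 20.1 in LD, a difference of -1.50 (adjusted p = 0.023, SE 0.46). The protein phosphatase 2C gene AT1G07160 had 2.13 and 1 in INO80N against 14.5 and 17 in INO80C in LD, a difference of -2.74 (adjusted p = 0.0054, SE 0.67), and the adjusted p was 0.059 without the second INO80N library. CSLA01 had 3.21 and 3.01 against 33.1 and 27.7 in LD, a difference of -2.93 (adjusted p = 0.0068, SE 0.74) with an adjusted p of 0.051 without the first INO80C library. In these 3 genes the groups did not overlap. AT4G29770 had 2.16 and 3.01 against 8.88 and 9.56 in LD, a difference of -1.52 (adjusted p = 0.016, SE 0.43), which lost its call without either INO80C library (adjusted p = 0.063 and 0.084) or the first INO80N library (adjusted p = 0.1). AT3G06955 differed by -1.23 (adjusted p = 0.032, SE 0.35) in SD, and lost its call when any 1 of the 4 libraries was left out, with adjusted p of 0.066 to 0.21, and when the fit held only libraries that the rule did not use (adjusted p = 0.062). AT2G05655 differed by -2.22 (adjusted p = 0.012, SE 0.54) in SD, and by -1.08 without the first INO80N library (adjusted p = 0.3) and -1.98 without the second INO80C library (adjusted p = 0.12).

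In libraries labelled arp5, 8 members were higher than in INO80FL and none lower in LD (3.06% of all genes were called higher and 5% lower), and 19 were higher and none lower in SD (4.21% and 5.57%). Of the 19, 4 are seed-type members, which leaves 15. The seed-type members were picked by their values in these same arp5-labelled SD libraries, so the 15 are a description only. The median log2 fold change of the members was 0.88 in LD and 1.32 in SD. In both day lengths 5 members were higher, AT5G54700, AT3G06955, AT4G27980, AT3G01030 and AT2G01810, as were 1.49% of all genes tested. In the fits without 1 library given next, calls over all genes fell as well. The LD count was 3 without the first INO80FL or the first arp5-labelled library and 5 without the second, and the SD count was 9 or 12 without the first or second INO80FL library and 7 or 10 without the first or second arp5-labelled library.

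AT3G01030 had 11 and 11.1 in libraries labelled arp5 in LD, against 0 and 0 in INO80FL (log2 fold change 3.59, adjusted p = 1.1e-05, SE 0.45). AT5G04355 had 15.1 and 17.3 against 1.05 and 2.08 in SD (log2 fold change 2.77, adjusted p = 4.9e-06, SE 0.33). AT2G01810 had 9.49 and 7.68 against 0 and 0 in SD (log2 fold change 3.25, adjusted p = 7.7e-05, SE 0.48). Both libraries labelled arp5 were above INO80FL in these 3 genes. In LD, AT1G05397 had 11 and 6.06 against 1.08 and 0.00681 (log2 fold change 2.67, adjusted p = 0.0013, SE 0.50), and AT2G01810 had 14.9 and 9.08 against 2.18 and 1.07 (log2 fold change 2.31, adjusted p = 0.0036, SE 0.48, and 0.07 without the first arp5-labelled library). AT5G54700 had 20.9 and 11.1 against 0.0248 and 2.08 (log2 fold change 3.20, adjusted p = 0.0018, SE 0.62, and 0.082 without the first INO80FL library). AT4G27980, a DUF3444 gene 20661 bp from ATX4, had 16.9 and 15.1 against 2.31 and 7.31 (log2 fold change 1.70, adjusted p = 0.013, SE 0.42), and lost its call without either arp5-labelled library (adjusted p = 0.099 and 0.059) or the first INO80FL library (log2 fold change 1.03, adjusted p = 0.29). The seed-type member AT1G68250 had 129 and 222 in SD against 0 and 0 in INO80FL, and NSP2 had 34.6 and 79.2 against 1.03 and 0.00552, beside storage gene sums of 1830 and 3230 against 7.26 and 5.24. Their log2 fold changes were 7.41 (adjusted p = 0.0012, SE 1.40) and 5.22 (adjusted p = 0.00037, SE 0.88).

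In atx4/5;jmj24, 6 members were higher than in INO80FL and 2, AT1G62530 and AT5G13940, lower in LD (6.67% of all genes were called higher and 7.53% lower), 15 were higher and 1, AT1G62530, lower in SD of set 1 (7.7% and 11.6%), and 4 of 49 tested were higher and none lower in SD of set 2 (0.695% and 1.86% of 24458 genes). Of the 15, 5 are seed-type members, which leaves 10. The median log2 fold change of the members was 0.42, 0.73 and 0.75. The LD count of calls was 5 without either INO80FL library or the first atx4/5;jmj24 library and 3 without the second, and the count in set 2 was 2 without either atx4/5;jmj24 library or the second INO80FL library. Calls over all genes also fell in these fits. In all 3 comparisons 4 members were higher, AT5G41290, AT3G10510, AT4G19730 and AT3G01030, as were 0.359% of the 24251 genes tested in both sets. The calls of set 2 rest on a spread estimated with libraries that the rule used. With only the 4 libraries of atx4/5;jmj24 and INO80FL in the fit of set 2, which leaves 2 residual degrees of freedom, limma called 0 members and 0 genes, with 17 of 47 members and 3179 of 23551 genes at an unadjusted p under 0.05, and the adjusted p of these 4 members was 0.11 to 0.13.

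AT3G10510 had 29.7 and 52.3 in atx4/5;jmj24 in LD, 8.56 and 4.72 in SD of set 1 and 71.2 and 59.9 in set 2, whereas INO80FL had 2.15 and 0.0136 in LD, 0 and 0 in SD of set 1 and 2.06 and 1.05 in set 2. All 6 atx4/5;jmj24 libraries were above the INO80FL libraries of their block, and the log2 fold changes were 4.50 (adjusted p = 3.7e-07, SE 0.46), 2.89 (adjusted p = 9.5e-05, SE 0.46) and 4.73 (adjusted p = 8.1e-05, SE 0.31). The LD value was 5.32 without the first and 3.68 without the second INO80FL library. AT3G01030 had 13.6 and 7.42 in atx4/5;jmj24 in LD, 15.2 and 11.4 in SD of set 1 and 7.02 and 8.11 in set 2, where INO80FL had at most 1.04. Its log2 fold changes in that order were 3.47 (adjusted p = 1.1e-05, SE 0.45), 3.31 (adjusted p = 1.4e-05, SE 0.45) and 3.10 (adjusted p = 0.0028, SE 0.38).

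AT5G15360, an uncharacterized protein gene, had 38.7 and 20.1 in atx4/5;jmj24 in LD against 1.17 and 4.18 in INO80FL, and 42.6 and 38.1 against 3.1 and 1.07 in SD of set 1, with log2 fold changes of 3.11 (adjusted p = 0.00028, SE 0.53) and 3.83 (adjusted p = 1.8e-05, SE 0.53). The LD value was 2.48 without the first and 3.74 without the second INO80FL library. In set 2 it had 6.02 and 15.2 against 4.11 and 1.06 (log2 fold change 1.72, adjusted p = 0.13, SE 0.50). AT5G41290 had 20 and 23.1 in LD against 5.48 and 4.23 in INO80FL, 28.5 and 18 against 2.12 and 6.22 in SD of set 1 and 66.2 and 76.1 against 19.6 and 17.6 in set 2. Its log2 fold changes were 1.95 (adjusted p = 0.0071, SE 0.47), 2.32 (adjusted p = 0.0012, SE 0.47) and 1.88 (adjusted p = 0.01, SE 0.29). The LD call was lost without the second library of either group (adjusted p = 0.059 and 0.052), and the set 2 call without either atx4/5;jmj24 library or the second INO80FL library (adjusted p = 0.062 to 0.091). AT4G19730 had 46.1 and 52.7 against 9.29 and 8.3 in set 2 (log2 fold change 2.36, adjusted p = 0.044, SE 0.51), a call that was lost without any 1 of the 4 libraries (adjusted p = 0.12 to 0.22).

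Some members that were on in ino80 were at or under 2 in atx4/5;jmj24. AT1G03710 had 0 and 0 there in LD, 0.941 and 0.949 in SD of set 1 and 2 and 1.02 in set 2, and AT2G05655 had at most 1.04 in any atx4/5;jmj24 library. AT1G62530, a DUF863 gene, was lower than in INO80FL, with 1.04 and 0.00631 in LD against 2.33 and 8.35 in INO80FL and 0 and 0.96 against 4.18 and 6.24 in SD of set 1. The log2 fold changes were -1.96 (adjusted p = 0.0035, SE 0.43) and -2.13 (adjusted p = 0.0012, SE 0.43). The LD value was -1.21 without the second INO80FL library (adjusted p = 0.11) and the adjusted p was 0.077 without the second atx4/5;jmj24 library. In contrast, AT1G62530 had 18.7 and 18.1 in INO80N and 28 and 21.2 in INO80C in SD against 4.18 and 6.24 in INO80FL, with log2 fold changes of 1.66 (adjusted p = 0.0078, SE 0.43) and 2.05 (adjusted p = 0.001, SE 0.43). AT5G04355 had 5.59 and 12.5 in atx4/5;jmj24 against 1.05 and 2.08 in INO80FL in SD of set 1 (log2 fold change 1.91, adjusted p = 0.00026, SE 0.33). AT1G68250 had 78.8 and 381 against 0 and 0, beside storage gene sums of 1400 and 4150 against 7.26 and 5.24, and its log2 fold change of 7.45 was 8.58 without the first and 6.32 without the second atx4/5;jmj24 library.

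**Figure D5:**
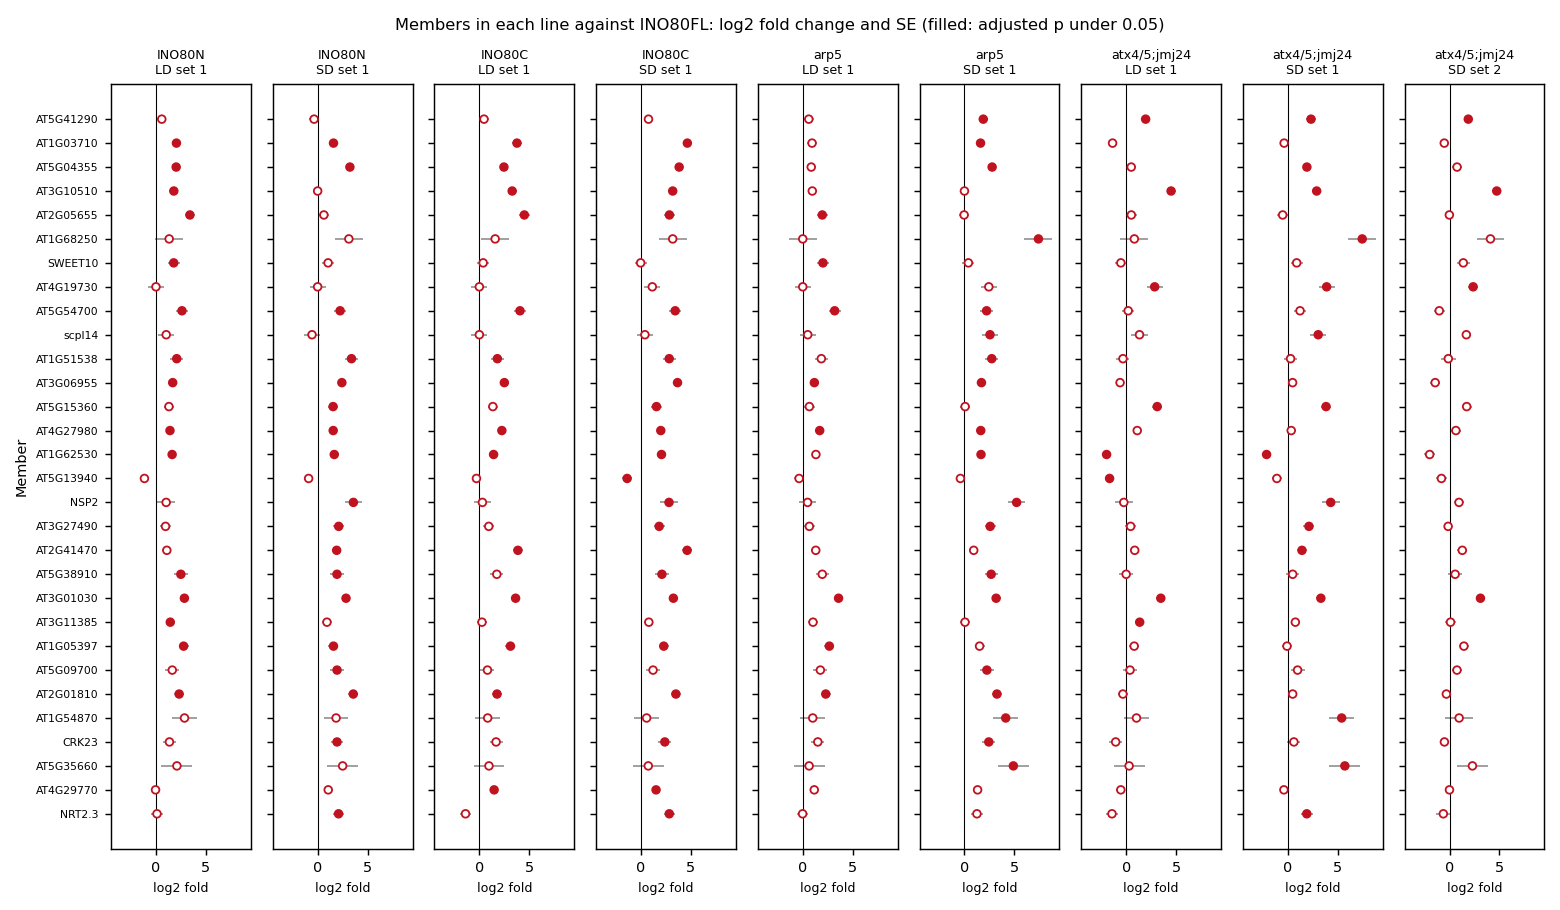
Log2 fold change against INO80FL of members called in at least 2 of the 9 contrasts, in order of rank from top to bottom, with 1 panel for each line, day length and set and bars showing the SE. Filled points have an adjusted p under 0.05. The panels of a day length and set share their INO80FL libraries, and AT1G62530 lies right of 0 in INO80N, INO80C and arp5 and left of it in atx4/5;jmj24.

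WOX12 (a WUSCHEL-related homeobox gene), LOG2 (AT2G35990, of a family of cytokinin-activating enzymes), MSRB8 (a methionine sulfoxide reductase) and AT5G17150 (a cystatin-like protein) are examples, chosen after their values were seen, of members that no contrast with INO80FL called higher. MSRB8 was on in INO80FL too, with 5.59 and 9.43 in LD, 8.31 and 7.32 in SD of set 1 and 18.6 and 15.6 in set 2, against 1.06 to 6.28 over the 6 Col-0 libraries. WOX12 had 2.29 to 6.27 over the 6 INO80FL libraries against 2.14 to 7.39 in Col-0. A call that is missing here does not show that a line and INO80FL are alike.

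Gene lists of other tissues and of silencing were counted in the same contrasts, and none holds a member. For the meiosis and seed maturation lists this follows in part from the loci dropped by name. Beside these counts, the shares of all genes called higher were 10.7% and 9.14% in INO80N in LD and SD, 12.1% and 11.9% in INO80C, 3.06% and 4.21% in libraries labelled arp5, and 6.67%, 7.7% and 0.695% in atx4/5;jmj24 in LD, SD of set 1 and set 2. Of 23 meiosis and germline genes tested, 6 and 8 were higher in INO80N in LD and SD, 7 and 11 in INO80C and 4 and 8 in libraries labelled arp5, and 2, 3 and 2 (of 22 in set 2) in atx4/5;jmj24. In this list 1 gene was lower in INO80N in each day length, in arp5-labelled libraries in LD and in atx4/5;jmj24 in SD of set 1. The list's median log2 fold change in LD and SD was 0.17 and 0.32 in INO80N, 0.47 and 0.62 in INO80C, and 0.33 and 0.47 in libraries labelled arp5, and in atx4/5;jmj24 it was 0.10 in LD, 0.17 in SD of set 1 and 0.12 in set 2. Between INO80N and INO80C, 4 genes of the list were lower in LD and 3 in SD and none higher, with medians of -0.34 and -0.39. Of 20 seed maturation genes, 1 and 0 were higher in INO80N, 0 and 1 in INO80C, 1 and 3 in arp5-labelled libraries, and 0 and 8 in atx4/5;jmj24 in LD and SD of set 1, with 0 of 21 in set 2. Lower calls of this list were 1 in INO80N in LD, 2 in atx4/5;jmj24 in LD and 1 in set 2. Its median log2 fold change in LD and SD was 1.03 and 1.12 in INO80N and 0.53 and 0.79 in INO80C. In arp5-labelled libraries the median was 0.43 and 0.94. In atx4/5;jmj24 it was 0.10 in LD, 1.5 in SD of set 1 and 0.24 in set 2. Of 8 floral organ genes, 1 and 2 were higher in INO80N, 2 and 3 in INO80C, 1 and 2 in arp5-labelled libraries and 1, 2 and 0 in atx4/5;jmj24, and 1 was lower, in INO80N in LD. Their median log2 fold change in LD and SD was 0.45 and 0.42 in INO80N and 0.66 and 1.38 in INO80C. In arp5-labelled libraries the median was 0.85 and 0.17. In atx4/5;jmj24 it was 0.42 in LD, 0.65 in SD of set 1 and 0.51 in set 2. Their summed value in LD was 315 and 402 in INO80N, 547 and 734 in INO80C, 782 and 492 in arp5-labelled libraries and 520 and 350 in atx4/5;jmj24, against 309 and 355 in INO80FL. In SD of set 1 it was 129 and 116 in INO80N, 214 and 303 in INO80C, 109 and 113 in arp5-labelled libraries and 159 and 189 in atx4/5;jmj24, against 62.6 and 87.5 in INO80FL. The floral sum was thus above INO80FL in every such library in SD, and its part in the members' values was not tested. Of 13 anther and pollen genes, at most 2 were higher in any contrast of set 1 (INO80N in LD) and 0 of 11 in set 2, and 1 was lower, in arp5-labelled libraries in LD. Of 16 root genes, between 0 and 5 were higher and between 0 and 3 lower against INO80FL, and of 29 silencing genes between 1 and 7 were higher and between 0 and 6 lower. Between INO80N and INO80C, 1 root gene was higher and 0 lower in LD, and 2 were higher and 5 lower in SD. Of silencing genes 7 were higher and 2 lower in LD, and 3 higher and 1 lower in SD. Seed maturation had 2 higher in LD, floral organs 1 and 2 lower in LD and SD, and anther and pollen 1 higher in SD. Over all genes 9.18% were higher and 9.92% lower in LD, and 3.96% and 3.8% in SD.

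Position and annotation were not used by the rule. Of the 50, 47 are protein-coding and 3 are lncRNAs (6%, against 10.7% of all loci). They lie on all 5 chromosomes, with 12, 6, 9, 9 and 14 on chromosomes 1 to 5. Only SWEET10 and SAE1B lie within 100 kb of each other, and 3 members lie within 100 kb of a mutated locus, AT5G13940, scpl14 and AT4G27980. The median gene length was 2118 bp in the members and 1827 bp in all loci. The rule ranked normalized reads per gene, and the part of gene length in that ranking was not tested. Another gene overlaps 4 members, AT5G04355, AT2G05655, AT5G13940 and TIP3;1, so that reads may be shared between the pair, and 38 members have no 50-base exon window that occurs elsewhere in the genome.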

How the data were processed

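Single-ended RNA-seq reads of 50 bp from whole seedlings were aligned with HISAT2 2.2.0 to the TAIR10 genome and normalized with edgeR, per the submitters' processing notes. The read counter, annotation and strand setting are not given in the sources used here. The deposited values are a normalized read signal per gene, not whole counts, and the authors made the table of 36 libraries (set 1) and that of 12 libraries (set 2) separately. Because the values are normalized, the test was limma 3.58.1 (R 4.3.3), which had been planned for normalized values, and not the count test planned for counts.

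Values were taken as log2(value + 1) where a gene reached 1 in at least 2 libraries, and groups were compared with limma (trend on, 1 fit per set). P-values were Benjamini-Hochberg adjusted over all genes tested, with a threshold of 0.05. The 11 contrasts compare libraries outside the rule, but all libraries of a set entered its fit, so those of the rule helped to set the residual spread, the trend and the filter. Members described in full were the first 12 by rank, up to 5 per contrast with the smallest adjusted p under 0.05, and the 3 whose mutant value lay most in each line. The members, the gene lists and the 7 seed-type members were chosen with earlier results of these data known, so none of them is independent support. Correlations of replicate differences between groups ran from -0.072 to 0.0669, so same-numbered libraries did not deviate together. This does not show whether they were grown or prepared together. Depth limits every member, and no interval on counts is given because the values are not counts. Alternatives were other pseudocounts, filters, scalings, a repeat-number block, leaving out each library and, added after the data were seen, a fit of only the libraries outside the rule. Coordinates and sequences come from RefSeq on TAIR10.1.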

Additional observations from a re-analysis of the deposited data

Results flagged for a closer look

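Effects of 3 members differed between short and long days, by a limma interaction contrast in set 1 adjusted over all genes. AT2G05655 had an INO80N effect against INO80FL that was lower in SD than in LD by -2.778 on the log2 scale (SE 0.76, adjusted p = 0.034). The nitrate transporter gene NRT2.3 had an effect that was higher in SD than in LD in INO80C, by 4.215 (SE 0.82, adjusted p = 0.0025), and in atx4/5;jmj24, by 3.314 (adjusted p = 0.02). Both share the INO80FL libraries, where NRT2.3 had 8.72 and 5.31 in LD and 0 and 0 in SD. Col-0 had 6.53 and 3.37 in LD and 0 and 0 in SD. NRT2.3 had 1.16 and 3.16 in INO80C in LD and 6.75 and 5.53 in SD. In atx4/5;jmj24 it had 1.08 and 3.13 in LD and 3.8 and 1.88 in SD. Both lines were thus below INO80FL in LD. NSP2 had an atx4/5;jmj24 effect that was higher in SD by 4.528 (SE 1.25, adjusted p = 0.036), and it is among the seed-type members whose values go with the storage genes. Over all 25638 genes, the effect was called higher in SD for 525 and lower for 752 in INO80N, 929 and 1471 in INO80C, and 474 and 849 in atx4/5;jmj24. In libraries labelled arp5 limma called 0 genes and 0 members, with 2008 genes and 7 members at an unadjusted p under 0.05. Only 2 libraries stand behind each group.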

How the results depend on the processing

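Of 648 alternatives for 54 named gene results, 611 kept the call, 37 lost it and 0 changed direction, and 39 results kept it in every alternative. Of 143 alternative counts of called members, 120 were within 1.5 times of the main count. Of the other 23, 22 left out 1 library and 1 was atx4/5;jmj24 in set 2, with 0 calls in a fit of only libraries outside the rule (2 residual degrees of freedom, 17 members at an unadjusted p under 0.05). That fit, added after the data were seen, gave 15 and 17 calls in INO80N, 18 and 21 in INO80C, 7 and 4 between them, 6 and 17 in arp5-labelled libraries, and 7 and 15 in atx4/5;jmj24 in LD and SD of set 1. The call of AT4G19730 in atx4/5;jmj24 in set 2 was also lost with no filter (adjusted p = 0.14), with equal totals (0.051) and without the trend (0.079). Leaving out each library gave 10 to 14 calls in INO80N in LD and 8 to 14 in SD, 12 to 15 and 16 to 18 in INO80C, 3 to 6 and 3 to 4 between INO80N and INO80C, 3 to 7 and 7 to 12 in libraries labelled arp5, and 3 to 5, 11 to 13 and 2 to 3 in atx4/5;jmj24 in LD, SD of set 1 and set 2. Each fit without 1 library called fewer genes higher and fewer lower over all genes, so its lower member count is not read as a trait of the members. The fit of only libraries outside the rule also called fewer genes in set 1, at 615 and 1053 in arp5-labelled libraries in LD against 784 and 1283. With a replicate block the counts were 16 and 17 in INO80N, 16 and 21 in INO80C, 7 and 5 between them, 8 and 17 in arp5-labelled libraries and 8, 16 and 5 in atx4/5;jmj24. Over all genes the block called 2760 higher and 3037 lower in INO80N in LD, against 2751 and 3001. In set 2 it called 256 and 598, against 170 and 454. The labels do not say whether repeat numbers pair the libraries. Counts over the 43 members without the 7 seed-type genes, an alternative added after the data were seen, were 16 and 17 in INO80N and 15 in arp5-labelled libraries in SD. The values of those arp5-labelled libraries picked the 7 genes, so the 15 are a description only.

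Scaling to equal library totals moved the median log2 fold change of all genes by 0.11 in INO80N, 0.13 in INO80C and 0.1 in atx4/5;jmj24 in SD of set 1, and turned the split of all genes. Genes called higher and lower were 4897 and 1721 against 2343 and 3129 as deposited in INO80N in SD, 3611 and 2311 against 2751 and 3001 in INO80N in LD, 5973 and 2346 against 3059 and 4031 in INO80C in SD, and 3163 and 1472 against 2353 and 2544 for INO80N over INO80C in LD. They were 2032 and 757 against 784 and 1283 in arp5-labelled libraries in LD, 2497 and 679 against 1079 and 1428 in SD, and 4360 and 1748 against 1975 and 2984 in atx4/5;jmj24 in SD of set 1. Quantile normalization gave 2745 and 2391 in INO80N and 3661 and 3236 in INO80C in SD. The members' own calls hardly moved with equal totals, at 17 and 18 higher in INO80N and 10 and 22 in arp5-labelled libraries.

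The member set depends on the limit: a Col-0 limit of 2 keeps 6 of the 50 members and a limit of 10 keeps 16 among its first 50. Low values limit all results.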
